A study of Mus musculus with 8 samples.

Results

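The 7006 loci described here are those for which the response of mouse liver to IUB288 could be set side by side in KO and in WT animals. A locus entered when it had the status OK in both of the authors' treatment tables, IUB288 against vehicle in KO and in WT, and reached 5 FPKM (fragments scaled to transcript length and library size) in at least 1 of the 4 groups. They are 7006 of the 26682 loci in each table, and 131 of them have no gene symbol. The highest FPKM was 5.001 in the locus just inside this limit and 4.999 in the locus just outside it.

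Livers of 8 C57Bl/6J mice were sequenced, 2 in each of 4 groups, which were KO mice given IUB288, KO mice given vehicle, WT mice given IUB288 and WT mice given vehicle. IUB288 is an agonist of the glucagon receptor, and KO stands beside a floxed Fxr gene in the series' design text, listed as Nr1h4 in the tables. All mice had fasted for 2 h. Which exon was deleted, by which recombinase and so in which tissue are points not given in the sources used here. High-fat and standard chow are both mentioned, but no label ties a diet to a mouse, so diet and group cannot be told apart. The tables hold 1 pooled FPKM per group and locus, with no value per mouse, and depth per library is unknown. P-values therefore rest on the spread that the authors' test statistics imply. Hepatocyte genes Ttr and Apoa1 stood at 3714 FPKM or above in every group, while pancreatic Prss1 was listed at 0 in all of them. Other markers of pancreas and gut were not absent. Cela1 stood at 23.8 FPKM in KO IUB288, 58.1 in KO vehicle, 20.2 in WT IUB288 and 15.5 in WT vehicle livers. Fabp2 stood at 45.1 FPKM in KO IUB288, 105 in KO vehicle, 30.7 in WT IUB288 and 137 in WT vehicle livers. Alb, the defining hepatocyte transcript, was listed at 0 in both vehicle groups with the status LOWDATA and was not used.

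Glucagon binds a G protein-coupled receptor on hepatocytes, raises cyclic AMP and drives glucose output and amino acid breakdown. The farnesoid X receptor is a nuclear receptor for bile acids that induces the repressor SHP and thereby restrains bile acid synthesis. In liver it also touches lipid metabolism, gluconeogenesis and inflammatory gene expression. The comparison asked which loci answered IUB288 differently in KO and WT livers. It also asked whether such a gap lay in the livers given IUB288 or was already there under vehicle.

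The response of a locus is log2(IUB288/vehicle) of the pooled FPKM, and the difference is the KO response minus the WT response. It equals the treated gap, log2(KO IUB288/WT IUB288), minus the vehicle gap, log2(KO vehicle/WT vehicle), so each gap moves it by construction. The vehicle share is the part of the difference that the vehicle gap makes up. A difference of at least 1 in size was placed on the vehicle side at a share of at least 66.7%, on the treated side at a share of at most 33.3%, and otherwise on both. The 2 gaps cross tables scaled separately and carry no test. Values after ± are standard errors on the log2 scale, and z is the difference over its standard error. A difference passed when its normal two-sided p, adjusted over 13521 loci by the Benjamini-Hochberg method, was under 0.05. With 2 mice a group and no value per mouse, no exact test could be run. Of the members, 6989 had FPKM above 0 in all 4 groups, and the other 17 have no ratio.

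The targeted gene, Nr1h4, stood at 27.1 FPKM in KO IUB288, 36.8 in KO vehicle, 40.3 in WT IUB288 and 49.3 in WT vehicle livers. It was lower in KO at both levels, and its difference of responses was -0.15 ± 0.55. A locus-wide level cannot tell a deleted exon from an intact one. Genes of the receptor's best known circuit had differences of responses smaller than their standard errors. The difference was 0.33 ± 0.54 for Nr0b2, which encodes SHP, and -0.05 ± 0.60 for the bile salt export pump gene Abcb11. Cyp7a1, whose enzyme starts and limits bile acid synthesis, had 0.17 ± 0.60, and Cyp8b1, the 12α-hydroxylase that sets the share of cholic acid, had 0.34 ± 0.60. The glucagon receptor gene Gcgr differed by 0.01 ± 0.55, with 113 FPKM in KO IUB288, 117 in KO vehicle, 125 in WT IUB288 and 130 in WT vehicle livers. None of these passed.

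Over all members the responses of KO and WT livers ran together, with a Pearson r of 0.79 and a Spearman rho of 0.79 across 6989 loci, which are not independent replicates. The 2 treatment tables share no mouse. The difference had a median of -0.10, and its 5th to 95th percentiles were -0.59 and 0.54, beside a median standard error of 0.58. It was below 0 in 65.3% of the members. The difference was at least 1 in 134 members (1.92%) and at most -1 in 103 members (1.47%). The test called 14 loci, 0.104% of those tested, of which 13 are members, 7 with a higher and 6 with a lower response in KO. Unadjusted p-values under 0.05 numbered 146, or 1.08%. The p-values that the authors deposited imply smaller errors, by a median factor of 1.42, and with errors divided by it 42 members passed. With errors taken from those p-values themselves 8 passed, and Saa1, Saa2, Derl3, Egr1 and Zbtb16 passed under both kinds of error. Lcn2, Irak1, Selenbp2, Cyp2a4, Cyp3a11, Cyp4a12b, Rgs16 and mt-Tl2,mt-Ts2 then did not pass, while Hamp2, Per1 and Tmem86a did. The deposited p-values stop at 5e-05, so the error taken from the p-value of a strong response grows with the response. A locus with a strong response can thus fail with those errors by construction, and such a failure says little about it. Derl3 and Egr1 are members through 1 group alone, and a limit of 5 FPKM on the mean of the 4 groups left both out. A locus that reached 5 FPKM in 1 group alone had to differ to become a member, which holds for 441 members (6.31%), so counts and medians over members describe them and support nothing further.

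**Figure D1:**
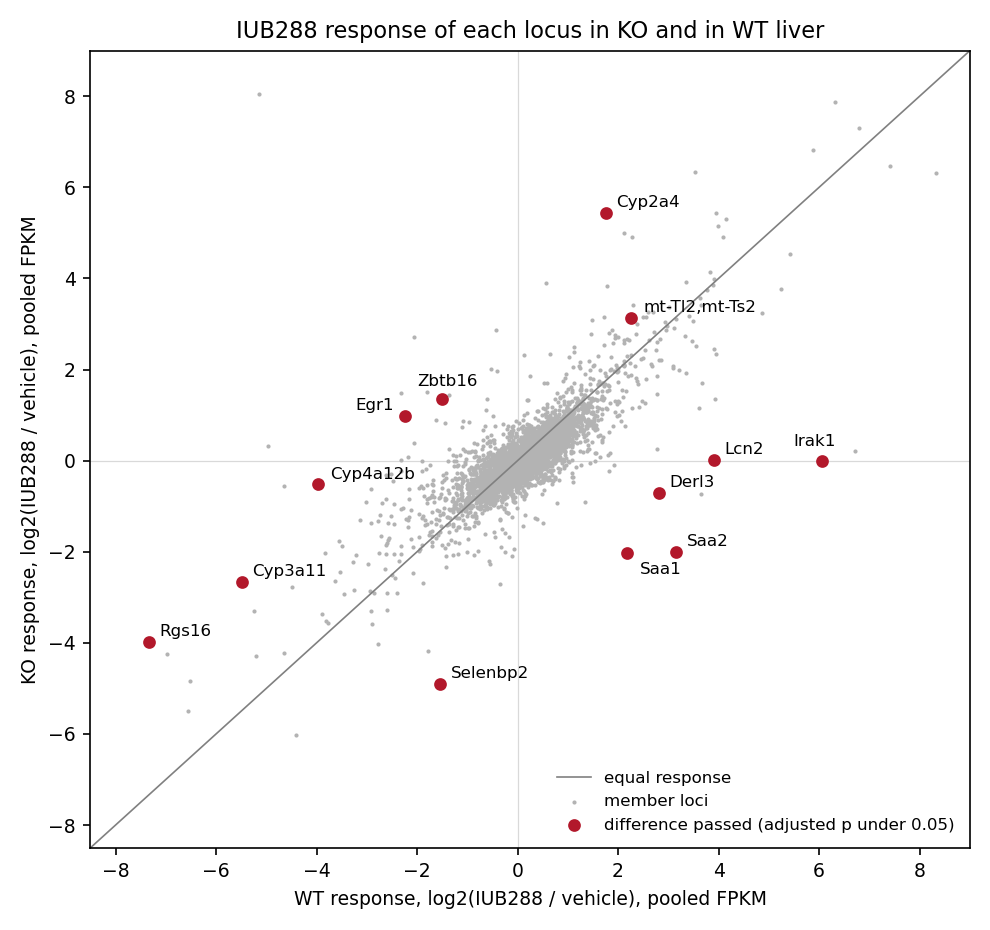
The KO response (vertical axis) is plotted against the WT response (horizontal axis) for 6989 member loci, both as log2(IUB288/vehicle) of pooled FPKM, with the line of equal response. Most loci lie near the line, and the 13 loci in red passed the test of the difference, with Saa1, Saa2, Lcn2, Irak1 and Derl3 far to the right of the line and Cyp2a4, Zbtb16 and Egr1 to the left of it.

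At q under 0.05 in the authors' deposited tables, 251 members were called higher with IUB288 in both genotypes and 154 lower in both. Calls in opposite directions were 3, namely Zbtb16, which was higher in KO and lower in WT, and Saa1 and Saa2, which were lower in KO and higher in WT. Across all loci of the authors' deposited tables the background was 5.51% called in KO and 7.37% in WT. A call in 1 genotype alone was more common than a difference. Of the members, 370 were called in WT alone in the authors' deposited tables, of which 5 passed the test of the difference, and 145 in KO alone, of which 0 passed. Their median difference in size was 0.59 for WT alone and 0.45 for KO alone.

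Acute phase genes gave 3 of the 6 lower differences that passed, and all 3 lay in the treated livers. Saa1 and Saa2 encode serum amyloid A, which hepatocytes secrete in inflammation and carry on high-density lipoprotein. Saa2 (mm10 chromosome 7, 46751833 to 46754314) stood at 9.05 FPKM in KO IUB288, 36.4 in KO vehicle, 810 in WT IUB288 and 90.8 in WT vehicle livers. Saa1 (chromosome 7, 46740499 to 46742980) stood at 20.1 FPKM in KO IUB288, 82.1 in KO vehicle, 1062 in WT IUB288 and 235 in WT vehicle livers. In KO livers both were lower with IUB288 than with vehicle, and in WT livers both were higher, while the vehicle gaps were -1.32 for Saa2 and -1.52 for Saa1. The difference was -5.17 ± 0.71 for Saa2 (z = -7.27) and -4.21 ± 0.67 for Saa1 (z = -6.29). Within 1 table, KO against WT under IUB288, the authors' deposited table gave Saa2 a log2 fold change of -6.44 ± 0.58 and Saa1 one of -5.69 ± 0.55, both with q = 0.0118. That table shares the IUB288 mice with the treatment tables. The stretch from 250 bases before to 50 after the start of each gene, taken from RefSeq for GRCm38.p6 (the same assembly as mm10), is shown because the pair moved together and can share reads. Aligned end to end, they hold 287 identical bases in 301 columns (95.3%), with 12 mismatches and 2 gaps. Saa2 lies on the plus strand (chr7:46751583-46751882) and Saa1 on the minus strand (chr7:46742931-46743230). Both are printed 5′ to 3′ along the gene, with no letters marked.
Saa2: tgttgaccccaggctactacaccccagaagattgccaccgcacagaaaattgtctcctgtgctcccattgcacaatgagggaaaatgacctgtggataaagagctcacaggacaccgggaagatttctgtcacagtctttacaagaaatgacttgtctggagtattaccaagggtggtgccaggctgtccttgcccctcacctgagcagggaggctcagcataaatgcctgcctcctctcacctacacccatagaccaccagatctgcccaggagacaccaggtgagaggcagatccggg
Saa1: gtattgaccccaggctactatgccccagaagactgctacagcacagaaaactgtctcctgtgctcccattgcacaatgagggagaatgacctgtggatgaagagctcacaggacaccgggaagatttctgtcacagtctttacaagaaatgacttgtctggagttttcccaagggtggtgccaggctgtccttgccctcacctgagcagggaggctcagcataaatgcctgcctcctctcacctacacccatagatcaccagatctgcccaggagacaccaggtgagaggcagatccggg

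Lcn2 (chromosome 2, 32384632 to 32388065) encodes lipocalin 2, which binds bacterial siderophores and is made by hepatocytes and neutrophils. It stood at 13.6 FPKM in KO IUB288, 13.5 in KO vehicle, 369 in WT IUB288 and 24.5 in WT vehicle livers, so that only the WT IUB288 group stood apart. Its difference was -3.91 ± 0.70 (z = -5.60), which did not pass with errors from the p-values. Saa3, a serum amyloid gene that macrophages also express, had the same order, with 6.88 FPKM in KO IUB288, 5.79 in KO vehicle, 60.9 in WT IUB288 and 8.86 in WT vehicle livers. Its difference of -2.53 ± 0.82 did not pass (z = -3.11). The locus of the orosomucoid genes Orm1, Orm2 and Orm3, acute phase plasma proteins, was chosen after its values were seen. It stood at 697 FPKM in KO IUB288, 816 in KO vehicle, 2450 in WT IUB288 and 689 in WT vehicle livers. Its difference was -2.06 ± 0.66 and did not pass either. Of the 30 acute phase and inflammation members 26 had a difference below 0, with a median of -0.44 beside -0.10 for all members. The authors' deposited tables called 3 of them higher and 5 lower with IUB288 in KO, against 12 higher and 3 lower in WT. In the authors' deposited tables, over all loci, 3.13% were called higher and 2.37% lower in KO, and 3.96% higher and 3.4% lower in WT. The authors' deposited table of KO against WT under IUB288 called 7 of the 30 lower in KO and none higher, beside 0.216% lower and 0.323% higher over all its loci.

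Macrophage markers were lower in KO livers beside the acute phase genes. Of 16 tested markers 11 are members, and all 11 had a difference below 0 and were lower in KO at both levels. Their median difference was -0.93, with a median vehicle gap of -0.49 and a median treated gap of -1.25. The summed FPKM of the 11 was 138 in KO IUB288, 177 in KO vehicle, 353 in WT IUB288 and 247 in WT vehicle livers, and none of the 11 was at 0 in any group. Marco, a scavenger receptor of Kupffer cells, stood at 2.91 FPKM in KO IUB288, 2.44 in KO vehicle, 12.8 in WT IUB288 and 4.78 in WT vehicle livers. It reached 5 FPKM in WT IUB288 livers alone, so the limit chose it through that group. Marco had a difference of -1.16 ± 0.73, Cd5l, a secreted macrophage protein, -1.08 ± 0.54, and the complement receptor gene Vsig4 -0.99 ± 0.64, and none of the 3 passed. The authors' deposited table of KO against WT under IUB288 called 7 of the 11 markers lower in KO, beside 0.216% lower over all its loci. In whole liver, fewer macrophages and less of these transcripts per macrophage cannot be told apart. The neutrophil gene S100a9 stood at 2.05 FPKM in KO IUB288, 0.523 in KO vehicle, 5.59 in WT IUB288 and 1.49 in WT vehicle livers. S100a9 too is a member only through WT IUB288 livers. Whether either cell type had a part in the acute phase differences was not tested.

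Some cytochrome P450 genes had a difference above 0 instead. Cyp3a11 (chromosome 5, 145854607 to 145879854), a major drug-oxidising enzyme of mouse liver, stood at 118 FPKM in KO IUB288, 749 in KO vehicle, 9.002 in WT IUB288 and 404 in WT vehicle livers. It fell with IUB288 in both genotypes of the authors' deposited tables, with a response of -2.67 ± 0.46 in KO and -5.49 ± 0.52 in WT. The difference was 2.82 ± 0.69 (z = 4.08), on the treated side. Cyp4a12b (chromosome 4, 115411624 to 115439034), a fatty acid ω-hydroxylase gene with male-biased expression, stood at 4.88 FPKM in KO IUB288, 6.92 in KO vehicle, 0.360 in WT IUB288 and 5.68 in WT vehicle livers. The WT IUB288 group alone was low, and the difference was 3.48 ± 0.83 (z = 4.16), or 1.87 on the log2(FPKM + 1) scale. Its paralog Cyp4a12a had a difference of 1.801 ± 0.61 that did not pass. Cyp2c50, of the pericentral zone, had 17.9 FPKM in KO IUB288, 511 in KO vehicle, 3.45 in WT IUB288 and 314 in WT vehicle livers, a difference of 1.68 ± 0.72 that did not pass. Reads of these paralogs may be divided between copies. Of 44 xenobiotic metabolism members 6 had a difference of at least 1 and 1 of at most -1, with a median of 0.06. The 1 was Cyp2c39, at 15.9 FPKM in KO IUB288, 26.4 in KO vehicle, 18.2 in WT IUB288 and 1.45 in WT vehicle livers, where only WT vehicle was low. Its difference of -4.38 ± 1.68 did not pass.

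Cyp2a4 (chromosome 7, 26307192 to 26315088), a steroid hydroxylase gene with female-biased expression, was the largest higher difference that passed. It stood at 47.3 FPKM in KO IUB288, 1.09 in KO vehicle, 17.8 in WT IUB288 and 5.26 in WT vehicle livers. It rose with IUB288 in both genotypes in the authors' deposited tables, and the vehicle and treated levels lay on opposite sides, KO being the lower under vehicle and the higher under IUB288. The difference was 3.68 ± 0.80 (z = 4.58), with a vehicle share of 61.6%. Hamp2, a hepcidin gene with female-biased expression, crossed in the same way, with 337 FPKM in KO IUB288, 133 in KO vehicle, 151 in WT IUB288 and 231 in WT vehicle livers, and its difference of 1.96 ± 0.59 passed only with the other errors tried, those from the p-values and those divided by 1.42.

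Male-biased genes showed a gap that was already there under vehicle. All 25 members of that list were higher in KO than in WT livers under vehicle, with a median vehicle gap of 1.21, beside 0.01 for all members. Under IUB288 22 of the 25 were higher in KO, with a median treated gap of 0.56. The difference was below 0 in 21 of them, with a median of -0.66. Selenbp2 (chromosome 3, 94693569 to 94704406), a selenium-binding protein gene, stood at 5.20 FPKM in KO IUB288, 155 in KO vehicle, 3.13 in WT IUB288 and 9.07 in WT vehicle livers. The KO vehicle group alone was high, and the difference was -3.36 ± 0.68 (z = -4.92), which did not pass with errors from the p-values. Hsd3b5, a steroid-reducing enzyme of male mouse liver chosen after its values were seen, stood at 27.6 FPKM in KO IUB288, 133 in KO vehicle, 7.08 in WT IUB288 and 10.3 in WT vehicle livers. Its difference of -1.72 ± 0.62 did not pass. The major urinary protein gene Mup21 and the oxysterol hydroxylase gene Cyp7b1 had another course. Cyp7b1 stood at 108 FPKM in KO IUB288, 96.6 in KO vehicle, 105 in WT IUB288 and 29.5 in WT vehicle livers, with WT vehicle alone low. Cyp7b1 had a difference of -1.67 ± 0.61 and Mup21, chosen after its values were seen, one of -1.68 ± 0.58, and neither passed. Of the 15 female-biased members 13 were lower in KO under vehicle, with a median vehicle gap of -0.57. Growth hormone pulses set this sexual dimorphism in rodent liver. Among 17 members of the growth hormone and IGF axis the median difference was -0.07, with 12 below 0, 5 above it, 3 at -1 or less and 2 at 1 or more. Socs2, a feedback inhibitor of growth hormone signalling, stood at 1.27 FPKM in KO IUB288, 5.82 in KO vehicle, 1.31 in WT IUB288 and 1.93 in WT vehicle livers. It reached 5 FPKM in KO vehicle livers alone and is a member only through that group. Its difference was -1.63 ± 0.80. Bcl6, a repressor that opposes STAT5 at many of its liver targets, stood at 2.29 FPKM in KO IUB288, 9.24 in KO vehicle, 10.6 in WT IUB288 and 12.6 in WT vehicle livers. Its difference of -1.75 ± 0.87 lay on the treated side. Neither passed. Y-linked Ddx3y and Eif2s3y were expressed in all 4 groups and Xist was at 0.0172 FPKM or below, so the pooled levels show male tissue in every group.

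In Zbtb16, Egr1 and Rgs16 the difference lay mainly under vehicle, where WT livers had the highest level of the 4 groups. Zbtb16 (chromosome 9, 48651796 to 48836348), a zinc finger repressor gene induced by glucocorticoids, stood at 5.05 FPKM in KO IUB288, 1.97 in KO vehicle, 4.18 in WT IUB288 and 11.9 in WT vehicle livers. It rose with IUB288 in KO and fell in WT in the authors' deposited tables, and the difference was 2.87 ± 0.68 (z = 4.23). Egr1 (chromosome 18, 34861207 to 34864956), an immediate-early transcription factor gene, stood at 3.92 FPKM in KO IUB288, 2.00 in KO vehicle, 1.89 in WT IUB288 and 8.93 in WT vehicle livers. Its difference was 3.21 ± 0.68 (z = 4.69), and the vehicle share of 67.2% lay just inside the limit for the vehicle side. Egr1 reached 5 FPKM in WT vehicle livers alone and is a member only through that group. Rgs16 (chromosome 1, 153740353 to 153745468), a regulator of G protein signalling, stood at 1.40 FPKM in KO IUB288, 22.2 in KO vehicle, 0.686 in WT IUB288 and 110 in WT vehicle livers. It fell in both genotypes of the authors' deposited tables, with a response of -3.99 ± 0.51 in KO and -7.33 ± 0.59 in WT, and the difference was 3.34 ± 0.78 (z = 4.29). Of 20 glucocorticoid-responsive members 19 were lower in KO under vehicle, with a median vehicle gap of -1.09 and a median difference of 0.71. The limit of 5 FPKM helped to choose them, as 3 of the 20 reached it in 1 group alone, 2 of them in WT vehicle livers. The difference was below 0 in 4 of the 20, Lcn2 among them. The authors' deposited tables called 10 of the 20 higher and 0 lower with IUB288 in KO, against 8 higher and 3 lower in WT. Over all loci 3.13% were called higher and 2.37% lower in KO, and 3.96% higher and 3.4% lower in WT. The cyclin-dependent kinase inhibitor gene Cdkn1a stood at 5.62 FPKM in KO IUB288, 1.13 in KO vehicle, 4.84 in WT IUB288 and 4.44 in WT vehicle livers, where KO vehicle alone was low. It reached 5 FPKM in KO IUB288 livers alone, and its difference of 2.19 ± 0.76 did not pass.

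**Figure D2:**
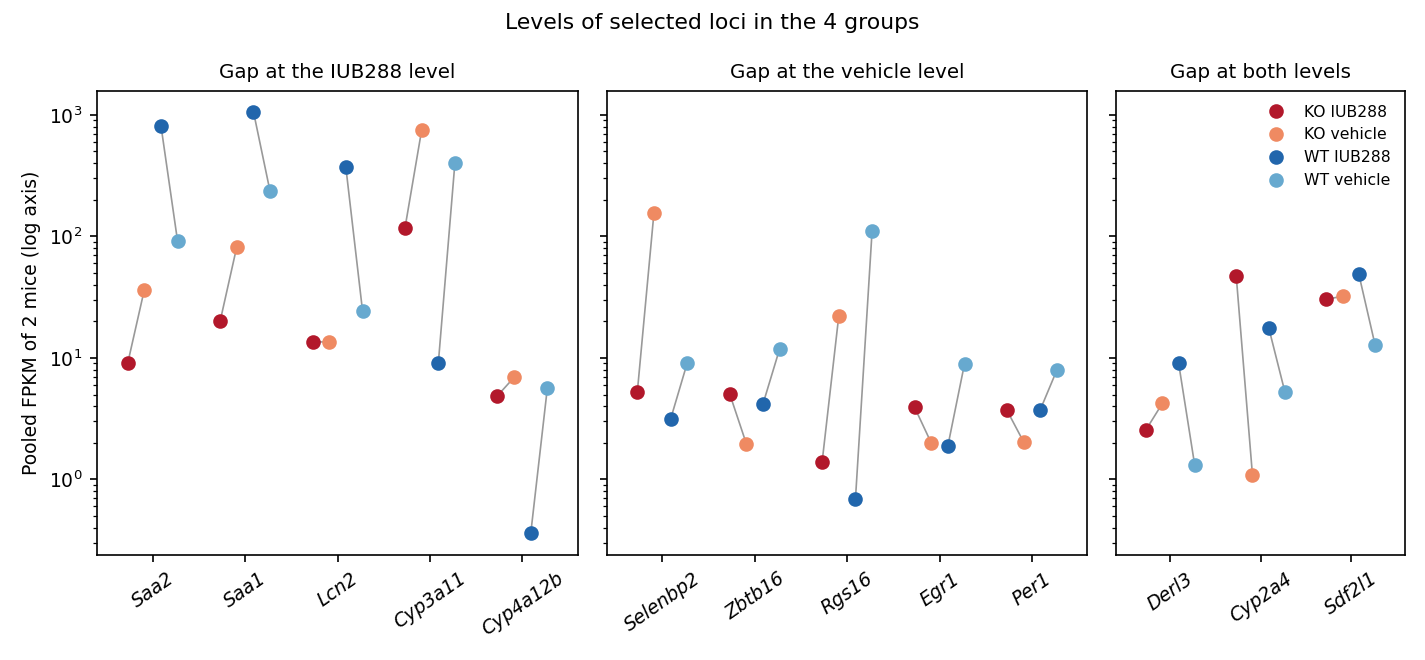
Pooled FPKM of 2 mice per group on a log axis for 13 loci, in the order KO IUB288, KO vehicle, WT IUB288 and WT vehicle, with a line joining the groups of each genotype. On the left the genotypes part under IUB288 (Saa2 at 9.05 FPKM in KO and 810 in WT), in the middle under vehicle (Selenbp2 at 155 FPKM in KO and 9.07 in WT), and on the right at both levels.

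Clock genes with a high level in WT vehicle livers followed the same course. Of 26 tested circadian loci 20 are members, and 6 of these reached 5 FPKM in 1 group alone, 5 of them in WT vehicle livers. Over the 20, which the limit of 5 FPKM thus helped to choose, 16 had a difference above 0 and 7 one of at least 1. None passed. Per1, a core repressor of the clock that glucocorticoids and cyclic AMP also induce, stood at 3.70 FPKM in KO IUB288, 2.03 in KO vehicle, 3.75 in WT IUB288 and 7.97 in WT vehicle livers. Its difference was 1.95 ± 0.61, with a treated gap of -0.02, and it passed with errors from the p-values. Usp2, a clock-controlled deubiquitinase gene, stood at 1.89 FPKM in KO IUB288, 2.35 in KO vehicle, 2.01 in WT IUB288 and 12.4 in WT vehicle livers, a difference of 2.31 ± 0.71. Gm129, also called Ciart, a repressor of the clock, stood at 1.15 FPKM in KO IUB288, 1.69 in KO vehicle, 0.631 in WT IUB288 and 15.8 in WT vehicle livers. Its difference of 4.09 had a standard error of 2.76. In all 3 the WT vehicle group alone was high and alone reached 5 FPKM. The limit thus chose these 3 through that group, and their pattern follows from it. The activator gene Arntl, chosen after its values were seen, ran the other way, with 7.05 FPKM in KO IUB288, 1.85 in KO vehicle, 8.39 in WT IUB288 and 0.827 in WT vehicle livers and a difference of -1.41 ± 0.71. The hour of each mouse's death is a point not given in the sources used here. The promoters of Per1 and Ciart are shown because the clock's activators bind the E-box, CACGTG, a palindrome that reads alike on both strands. It is in 7.15% of 32851 RefSeq promoters of 300 bases and in 4 of 17 clock members with such a promoter, namely Per1, Tef, Tspan4 and Gm129. That share counts promoters, while a member counts if any of its promoters has the motif, so the 2 are not alike. A D-box, TTATG, then any base, then AA, was searched as well. It is in 3.38% of the promoters and in 3 of the 17 members, namely Per1, Per3 and Ccrn4l, and is not marked below. Where a gene has several promoters, the window printed is the first that holds an E-box. Per1 (GRCm38.p6, chr11:69098699-69098998, plus strand) holds 1 and Ciart (chr3:95882179-95882478, minus strand) holds 3, in capitals. Both motifs were chosen after the values were seen, and a match is a description of the letters only.
Per1: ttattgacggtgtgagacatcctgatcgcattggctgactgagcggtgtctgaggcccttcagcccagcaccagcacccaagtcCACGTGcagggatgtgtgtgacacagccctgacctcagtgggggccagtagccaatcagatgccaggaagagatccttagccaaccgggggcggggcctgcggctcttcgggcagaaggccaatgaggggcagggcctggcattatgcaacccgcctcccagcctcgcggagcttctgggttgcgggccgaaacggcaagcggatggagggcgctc
Ciart: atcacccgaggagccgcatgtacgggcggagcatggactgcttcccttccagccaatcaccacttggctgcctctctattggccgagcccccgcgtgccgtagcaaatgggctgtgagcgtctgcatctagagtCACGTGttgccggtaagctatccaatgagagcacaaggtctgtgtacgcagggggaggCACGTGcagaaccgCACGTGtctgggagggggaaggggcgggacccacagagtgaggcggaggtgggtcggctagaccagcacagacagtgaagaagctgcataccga

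Most genes of protein folding in the endoplasmic reticulum stood higher in KO than in WT livers under vehicle, and not under IUB288. Of 25 members 21 were higher in KO under vehicle, with a median vehicle gap of 0.54, and 10 under IUB288, with a median treated gap of -0.07. The median difference was -0.56, and 21 were below 0. Derl3 (chromosome 10, 75893398 to 75895941), which helps to export misfolded proteins for degradation, stood at 2.57 FPKM in KO IUB288, 4.22 in KO vehicle, 9.13 in WT IUB288 and 1.30 in WT vehicle livers. Its difference was -3.52 ± 0.85 (z = -4.16), made up at both levels with a vehicle share of 48.1%. Derl3 reached 5 FPKM in WT IUB288 livers alone and is a member only through that group. Sdf2l1, a partner of the chaperone BiP, stood at 30.3 FPKM in KO IUB288, 32.2 in KO vehicle, 49.0 in WT IUB288 and 12.9 in WT vehicle livers, and its difference of -2.02 ± 0.57 did not pass. Dnajb11, a co-chaperone gene of BiP, had a difference of -1.10 ± 0.54 that did not pass. The authors' deposited tables called 1 of the 25 higher and 0 lower with IUB288 in KO, against 5 higher and 2 lower in WT. Over all loci 3.13% were called higher and 2.37% lower in KO, and 3.96% higher and 3.4% lower in WT. The ER stress response element, CCAAT, then 9 bases of any kind, then CCACG, the letters bound by NF-Y and ATF6, was searched on both strands of the RefSeq promoters after the values were seen. It is in 39 of 32851 promoters (0.119%) and in 10 of 23 members of this list with a promoter. The list was made of genes of the stress response that the element is named for, so this share follows from the choice of list. The median difference of the 10 was -0.64, beside -0.56 for all 25. Whether the element had a part in the differences was not tested, and a match is a description of the letters only. As for the clock genes, a member counts if any of its promoters holds the motif, and the window printed is the first that does. No match printed here overlaps an E-box. The Derl3 promoter (GRCm38.p6, chr10:75893148-75893447, plus strand) carries it on the opposite strand, in capitals, and single matches of other members follow, read along the motif.
Derl3: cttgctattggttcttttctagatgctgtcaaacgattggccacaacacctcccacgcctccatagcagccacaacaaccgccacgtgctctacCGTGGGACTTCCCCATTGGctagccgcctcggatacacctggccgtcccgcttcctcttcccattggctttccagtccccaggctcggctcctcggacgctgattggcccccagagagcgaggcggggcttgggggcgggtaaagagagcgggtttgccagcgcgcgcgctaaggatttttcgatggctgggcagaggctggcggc
Creld2, chr15:88819520-88819538: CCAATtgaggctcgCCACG
Hspa5, chr2:34772025-34772043: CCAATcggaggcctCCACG
Calr, chr8:84847075-84847093: CCAATgagggtcgaCCACG

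Of these, Creld2 and Calr encode chaperones of the endoplasmic reticulum and Hspa5 encodes BiP itself. Calr had 513 FPKM in KO IUB288, 508 in KO vehicle, 812 in WT IUB288 and 380 in WT vehicle livers, a difference of -1.08 ± 0.64. Hspa5 had 225 FPKM in KO IUB288, 337 in KO vehicle, 178 in WT IUB288 and 178 in WT vehicle livers, a difference of -0.58 ± 0.60. Creld2 had 20.3 FPKM in KO IUB288, 29.2 in KO vehicle, 14.7 in WT IUB288 and 12.1 in WT vehicle livers, a difference of -0.80 ± 0.58. None of the 3, named for their promoters after the values were seen, passed, and in Hspa5 and Creld2 the KO vehicle group was the highest.

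**Figure D3:**
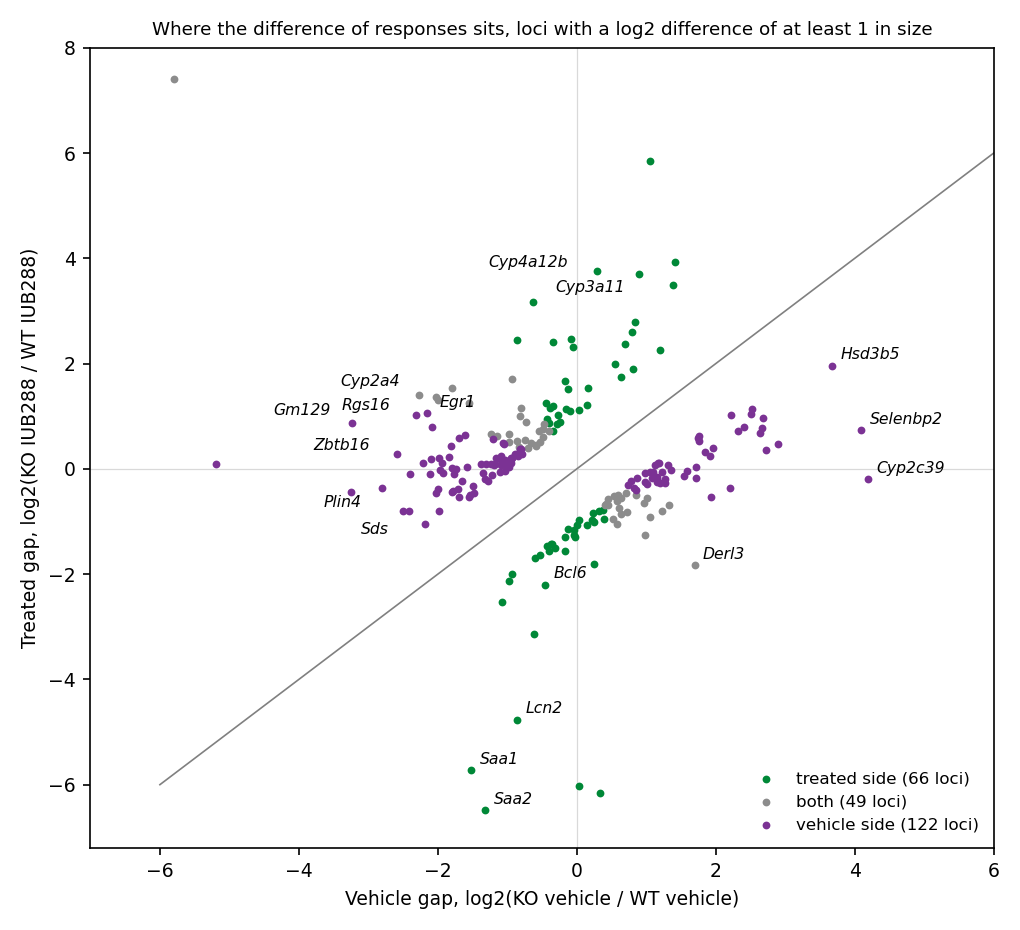
The treated gap, log2(KO IUB288/WT IUB288), is plotted against the vehicle gap, log2(KO vehicle/WT vehicle), for the 237 members with a difference of at least 1 in size; the line marks equal gaps. Purple points (122 loci) differ under vehicle, green points (66) under IUB288 and grey points (49) at both.

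Of the 237 members with a difference of at least 1 in size, 3.39% of all, 122 lay on the vehicle side, 66 on the treated side and 49 on both. The vehicle side held 74 higher and 48 lower differences, the treated side 33 and 33, and both levels 27 and 22. Of the 237, 80 reached 5 FPKM in 1 group alone. Restricted to loci of at least 5 FPKM in every group, a limit set after the data were seen, the sides held 48, 29 and 15. The authors' deposited table of KO against WT under IUB288 called 50 members at q under 0.05 (0.539% over all its loci), 23 higher and 27 lower in KO. Of these 26 had a difference of at least 1 in size, of which 23 lay on the treated side, 2 on the vehicle side and 1 on both. A call in that table is a call of the treated gap in the same IUB288 mice. The treated side is thus favoured by construction, and its count is no separate result. The other 24 called members kept a gap without a difference of that size. The metallothionein genes Mt1 and Mt2, whose products bind zinc and copper, are examples chosen after their values were seen. Mt1 stood at 133 FPKM in KO IUB288, 17.8 in KO vehicle, 1579 in WT IUB288 and 183 in WT vehicle livers, with a vehicle gap of -3.36 and a difference of -0.20 ± 0.62. Mt2 had a vehicle gap of -4.15 and a difference of 0.07 ± 0.84. Both rose with IUB288 in either genotype in the authors' deposited tables.

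Cholesterol synthesis genes leaned below 0 as well, and none passed the test of the difference. Of 25 members the authors' deposited tables called 10 lower with IUB288 in KO and 1 lower in WT, and none higher in either. Over all loci 2.37% were called lower in KO and 3.4% lower in WT. The difference was below 0 in 22 of the 25, with a median of -0.61, a median vehicle gap of 0.11 and a median treated gap of -0.53. Idi1, the isopentenyl diphosphate isomerase gene, stood at 37.4 FPKM in KO IUB288, 119 in KO vehicle, 68.2 in WT IUB288 and 76.6 in WT vehicle livers, with KO IUB288 the lowest and KO vehicle the highest. Its difference was -1.50 ± 0.58. The mevalonate kinase gene Mvk had -1.22 ± 0.59 and the sterol dehydrogenase gene Nsdhl -1.18 ± 0.57. Genes of fatty acid and triglyceride synthesis and storage leaned the other way, with a median of 0.25 over 29 members, 6 of them at 1 or more. Lpin1, a phosphatidate phosphatase gene, stood at 16.4 FPKM in KO IUB288, 16.4 in KO vehicle, 15.2 in WT IUB288 and 76.1 in WT vehicle livers, so that WT vehicle alone was high. Its difference was 2.33 ± 0.65 (z = 3.58). The lipid droplet protein genes Plin4 and Cidec had 2.44 ± 1.60 and 2.24 ± 1.33, also on the vehicle side. Both reached 5 FPKM in WT vehicle livers alone, so the limit chose them through that group. Of the 29 members 3 reached 5 FPKM in 1 group alone, 2 of them in WT vehicle livers.

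Among glucagon's classical targets, Pck1 and Sds had a wider gap under vehicle than under IUB288. Pck1, which commits oxaloacetate to gluconeogenesis, stood at 1434 FPKM in KO IUB288, 256 in KO vehicle, 1920 in WT IUB288 and 880 in WT vehicle livers. Its difference was 1.36 ± 0.82, with a vehicle gap of -1.78 and a treated gap of -0.42. Sds, the serine dehydratase gene, had 197 FPKM in KO IUB288, 38.8 in KO vehicle, 345 in WT IUB288 and 220 in WT vehicle livers and a difference of 1.70 ± 0.79. In both genes KO vehicle was the lowest group. The glucose-6-phosphatase gene G6pc ran the other way, with 154 FPKM in KO IUB288, 92.3 in KO vehicle, 149 in WT IUB288 and 50.8 in WT vehicle livers and a difference of -0.81 ± 0.57. The mitochondrial carrier gene Slc25a25 had -0.98 ± 0.58. Over 22 gluconeogenesis members the median difference was -0.03, and 11 lay on either side of 0. The hepatokine gene Fgf21 stood at 5.70 FPKM in KO IUB288, 3.64 in KO vehicle, 4.74 in WT IUB288 and 5.16 in WT vehicle livers, a difference of 0.77 ± 0.80. Follistatin, the activin-binding hepatokine encoded by Fst, had -1.63 ± 0.75. Among 68 members acting in the urea cycle or in amino acid breakdown the median was 0.06, and the tryptophan pathway gene Acmsd had -1.61 ± 0.65. Among 28 genes that the farnesoid X receptor induces the median was -0.10, the same as over all members, and Akr1b7 alone was past 1 in size, at -1.46 ± 1.57. Akr1b7 reached 5 FPKM in WT IUB288 livers alone. None of the genes in this paragraph passed. Among 18 cAMP-responsive members, 4 were at 1 or more and 3 at -1 or less.

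**Figure D4:**
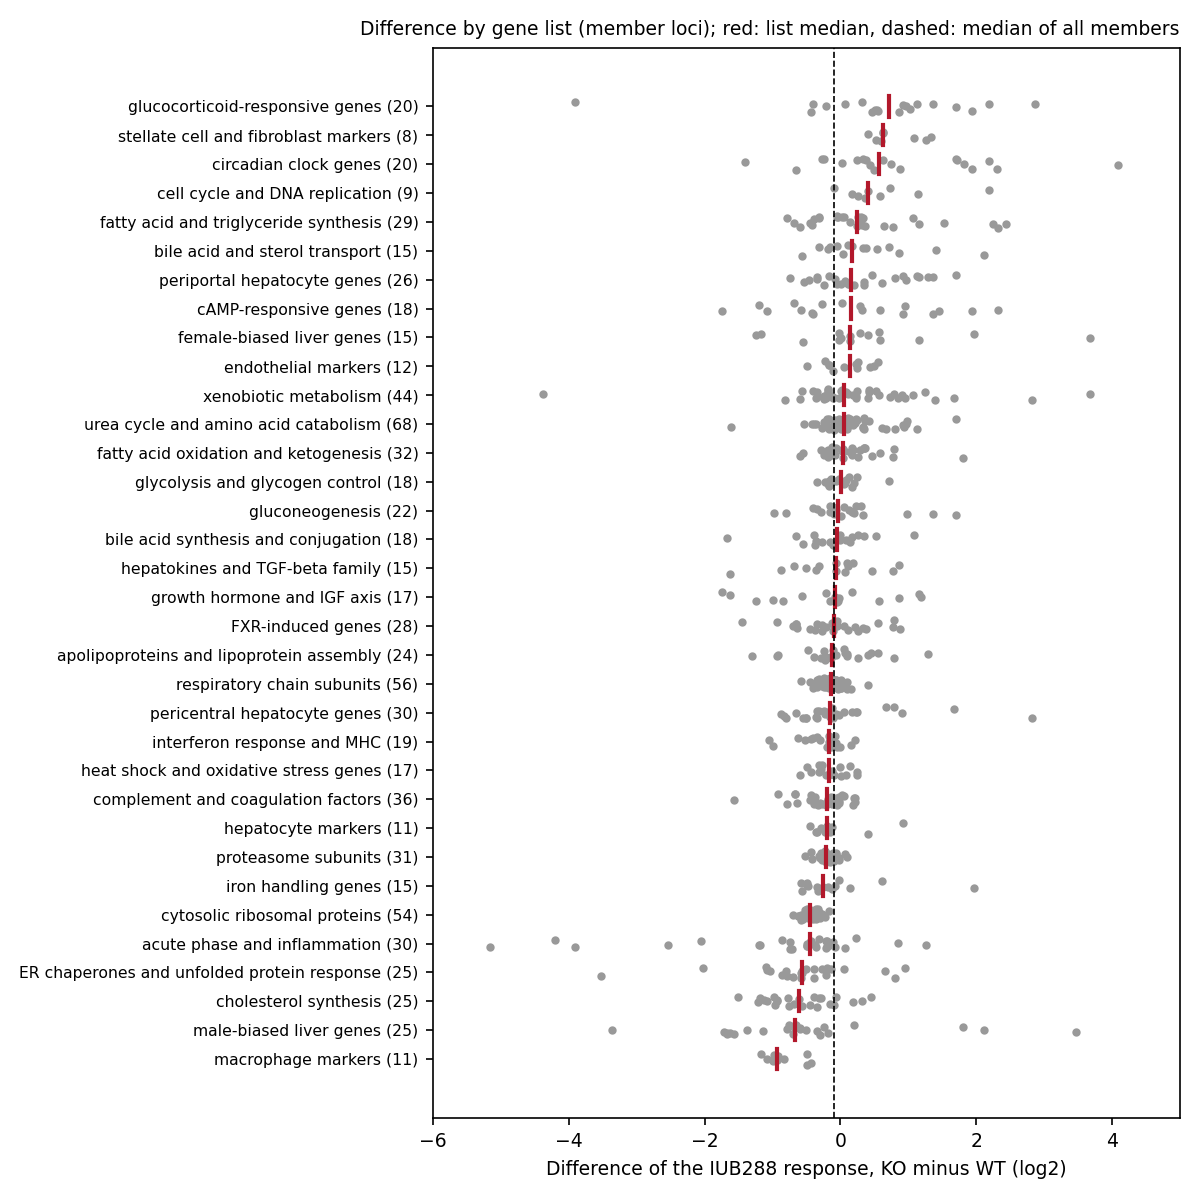
The difference of the IUB288 response, KO minus WT, on the log2 scale for the member loci of each gene list with at least 8 members (grey points), with the list's median in red and the median of all members (-0.10) as a dashed line. Macrophage markers (-0.93) and male-biased genes (-0.66) have the lowest medians and glucocorticoid-responsive genes (0.71) the highest.

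Ribosomal protein genes spanned a narrow range below 0. All 54 cytosolic ribosomal protein members had a difference below 0, from -0.69 to -0.17 with a median of -0.44, and none passed. The authors' deposited tables called 0 of them in KO, and 24 higher and 0 lower in WT. Over all loci 5.51% were called in KO, and 3.96% higher and 3.4% lower in WT. Rplp0, of the ribosomal stalk, stood at 308 FPKM in KO IUB288, 246 in KO vehicle, 452 in WT IUB288 and 223 in WT vehicle livers, so that WT IUB288 alone stood apart. Proteasome subunits had a median of -0.21 over 31 members and respiratory chain subunits one of -0.14 over 56. Stellate cell and fibroblast markers leaned to the other side. All 8 members of 21 tested had a difference above 0 and a lower level in KO under vehicle, but 3 of the 8 are members through WT vehicle livers alone. Their summed FPKM was 179 in KO IUB288, 195 in KO vehicle, 178 in WT IUB288 and 295 in WT vehicle livers, and none was at 0. The collagen gene Col6a1 had a difference of 1.26 ± 0.74, with WT vehicle the highest group and the only group that reached 5 FPKM. Endothelial markers, 12 members of which 5 reached 5 FPKM in WT vehicle livers alone, had a median of 0.14. Hepatocyte markers, 11 members, had one of -0.20.

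**Figure D5:**
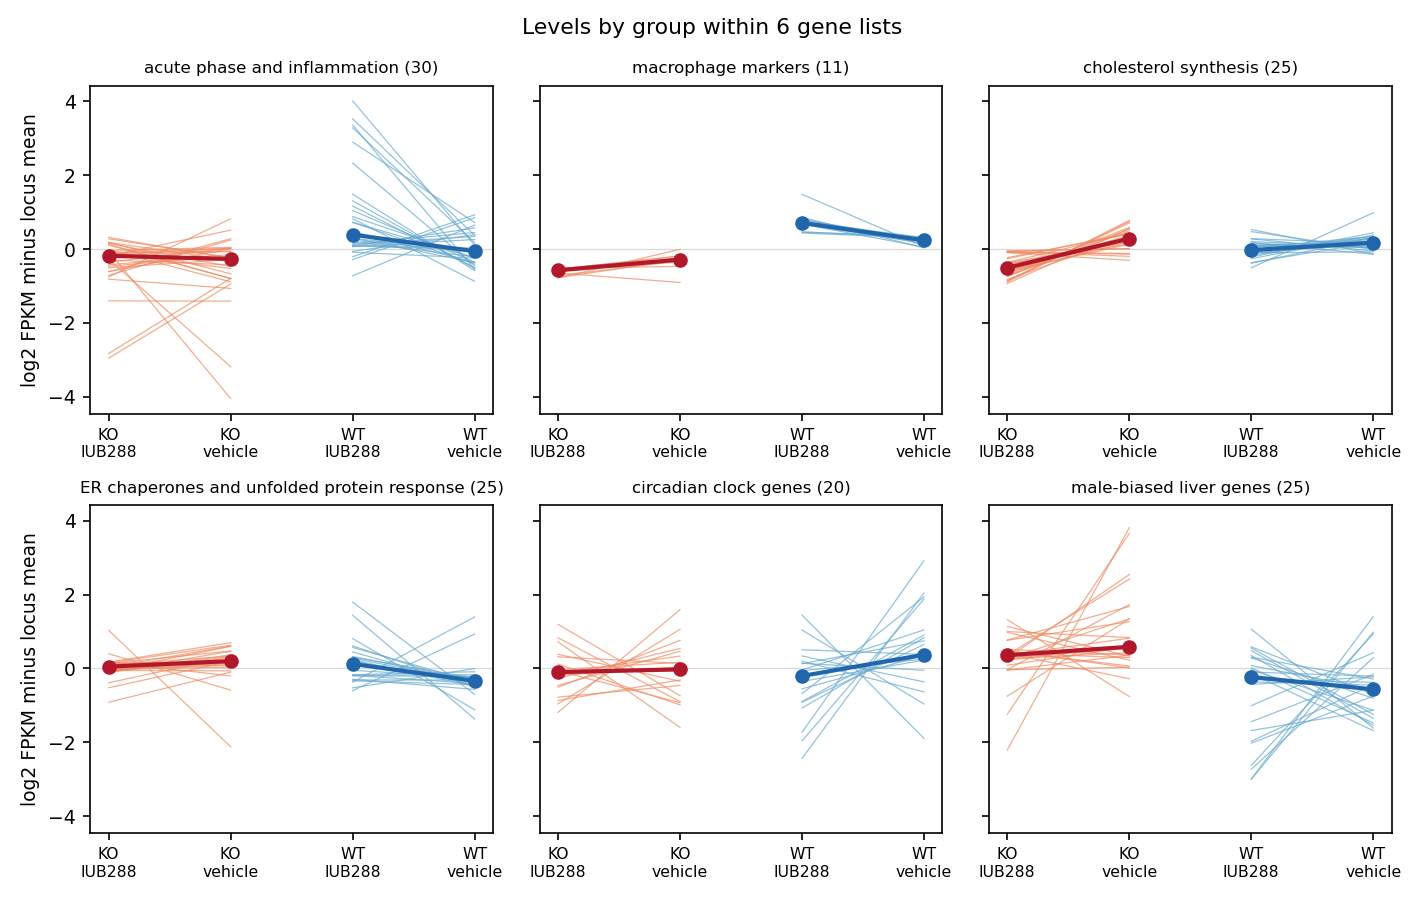
Levels by group within 6 gene lists, as log2 FPKM minus the locus mean over the 4 groups, with thin lines for loci and thick lines for the list's median. The median of the macrophage markers stands highest in WT IUB288, that of the cholesterol synthesis genes lowest in KO IUB288, and that of the male-biased genes higher in both KO groups than in both WT groups.

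Some of the largest differences rested on loci that hold a small RNA gene or on very wide errors. Irak1 (chromosome X, 74013914 to 74023936), a kinase gene of the interleukin-1 receptor pathway, stood at 14.8 FPKM in KO IUB288, 14.7 in KO vehicle, 961 in WT IUB288 and 14.4 in WT vehicle livers. Its difference of -6.06 ± 0.47 passed (z = -12.91), but not with errors from the p-values. Its locus also holds the microRNA genes Mir5132 and Mir718, and an FPKM over the locus cannot tell them apart from Irak1. The small nucleolar RNA locus Snord89 stood at 0.827 FPKM in KO IUB288, 0.717 in KO vehicle, 59.4 in WT IUB288 and 0.569 in WT vehicle livers. It is a member only through WT IUB288 livers, and its difference of -6.50 ± 1.75 did not pass. Stub1, whose locus holds Mir3082, had the largest difference of all, 13.2, with a standard error of 19.2. Glce, which holds Mir5133, had 5.29 with a standard error of 808. The mitochondrial tRNA locus mt-Tl2,mt-Ts2 passed with a difference of 0.87, but its test statistic is above 10 in size beside a p-value above 0.05, and without such loci 12 members passed. Of all members 972 hold a small RNA gene, and 24 of these had a difference of at least 1 in size. Over all members it was 237 of 6989 (3.39%), so differences of that size were not more common in loci with a small RNA gene.

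Among the remaining loci chosen by size alone, Tff3, a trefoil factor gene of mucosal epithelia, stood at 12.2 FPKM in KO IUB288, 1.65 in KO vehicle, 2.23 in WT IUB288 and 3.0 in WT vehicle livers, with KO IUB288 alone high. Its difference of 3.31 ± 1.25 did not pass. Prelid2 had 3.34 ± 1.07, Gm10653 3.81 ± 2.08, Amelx 4.79 ± 4.63 and mt-Ta 2.87 ± 1.37. The guanylate-binding protein gene Gbp11 stood at 0.655 FPKM in KO IUB288, 11.95 in KO vehicle, 0.471 in WT IUB288 and 1.61 in WT vehicle livers, with KO vehicle alone high, and its difference was -2.41 ± 0.98. The thyroglobulin gene Tg had -2.02 ± 5.62 and the Mir122a locus -2.56 ± 1.75. None of these passed. Tff3, Prelid2, Gm10653 and Amelx reached 5 FPKM in KO IUB288 livers alone. Gbp11 did so in KO vehicle livers alone, and Tg and Mir122a in WT IUB288 livers alone. The limit thus chose each of them through that group.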

How the data were processed

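Per the labels' protocols, TruSeq RNA libraries were made from liver RNA. The submitters' processing notes name Cuffdiff, Cufflinks 2.2.1, Bowtie2 2.2.3, TopHat2 2.0.12, Trim Galore 0.4.0 and bcl2fastq 1.8.4, with the builds mm10 and hg19. Coordinates match mm10 and are counted from 1. Strand settings were not given in the sources used here.

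The authors deposited, for each locus and comparison, pooled FPKM values, a log2 fold change, a test statistic, which is a score without a fixed range, a p-value and a q-value. Each table is scaled separately. Responses were computed here as log2 ratios of FPKM with no pseudocount. The standard error of a response was taken as the deposited log2 fold change over the deposited test statistic, and the z test used a two-sided normal p. The z test was also run on data simulated with these same standard errors, which cannot show whether the errors themselves are right. Members need 5 FPKM in any group, and the threshold was an adjusted p under 0.05.

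Named are 10 preset genes, the 12 largest differences in each direction among loci with 1 symbol, every member that passed and up to 3 per described list. Ppargc1a, 1 of the 10, is no member. One gene that this rule names is not reported here. The members and the 40 gene lists were chosen with earlier results of these data known. Alternatives covered other errors, thresholds, filters, centring, a pseudocount of 1 and the genotype table. Python 3.11.15, numpy 2.4.6, pandas 2.3.3, scipy 1.17.1 and matplotlib 3.10.9 were used.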

Additional observations from a re-analysis of the deposited data

Results flagged for a closer look

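The 13 members below were singled out because their response to IUB288 differed between KO and WT by the test of the difference itself. On the log2 scale, KO minus WT, the differences were -6.06 for Irak1, -5.17 for Saa2, -4.21 for Saa1, -3.91 for Lcn2, -3.52 for Derl3 and -3.36 for Selenbp2. The others were 0.87 for mt-Tl2,mt-Ts2, 2.82 for Cyp3a11, 2.87 for Zbtb16, 3.21 for Egr1, 3.34 for Rgs16, 3.48 for Cyp4a12b and 3.68 for Cyp2a4. Of these, the locus of Irak1 also holds Mir5132 and Mir718, and the mitochondrial tRNA locus has a test statistic that contradicts its p-value. With 2 mice pooled per group, a single animal behind any of these values could not be looked for.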

How the results depend on the processing

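Of the 13 members that passed, 13 also passed at an adjusted p under 0.1, with a minimum of 1 FPKM, among members only and after centring. A mean of at least 5 FPKM left 10, without Cyp4a12b, Derl3 and Egr1. Leaving out contradictory statistics left 12, and leaving out loci with a small RNA gene, an alternative added after seeing the data, left 11. At a threshold of 0.01, 8 passed. With errors from the p-values 8 passed, 5 of them among the 13. Lost were Cyp2a4, Cyp3a11, Cyp4a12b, Irak1, Lcn2, Rgs16, Selenbp2 and mt-Tl2,mt-Ts2, and gained were Hamp2, Per1 and Tmem86a. The smallest deposited p-value, 5e-05, bounds those errors by construction, so a locus with a strong response can fail with them however precise it is. With statistic errors divided by 1.42 there were 42, which hold all 13. On the log2(FPKM + 1) scale 6 passed, and Cyp2a4, Cyp3a11, Cyp4a12b, Derl3, Egr1, Rgs16 and Zbtb16 did not. That alternative kept the standard errors of the plain log2 scale. A pseudocount of 1 can shrink a difference at low levels, as from 3.48 to 1.87 for Cyp4a12b. The test on that scale is therefore stricter at low levels by construction. The split into vehicle side, treated side and both (122, 66 and 49) became 96, 48 and 28 on that scale. With at least 5 FPKM in all 4 groups, an alternative added after seeing the data that leaves fewer loci, it became 48, 29 and 15. It stayed within 1.5 times the main counts with centred gaps, with the treated gap of the genotype table, without loci that hold a small RNA gene and, for the 2 single sides, with a single limit. Of 124 named genes 115 kept their direction and their side of the threshold on the log2(FPKM + 1) scale, 124 after centring and 114 with errors from the p-values. On the log2(FPKM + 1) scale the difference turned from above to below 0 in S100a9, at -0.403, and in Ddx3y, at -0.0058, neither of which passed on either scale. No paired analysis was possible because the tables hold no value per mouse and the labels give the groups no shared replicate numbers. Leaving out single mice was not run for the same reason. Depth is unknown, so low levels such as 0.360 FPKM for Cyp4a12b carry no counting interval.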

Other observations

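Members listed at 0 in a group have no ratio, and 17 loci are of this kind. Wnt10a, a Wnt ligand gene chosen after its values were seen, stood at 1.22 FPKM in KO IUB288, 0.0130 in KO vehicle and 9.52 in WT IUB288 livers and was listed at 0 in WT vehicle livers. The small nucleolar RNA locus Snord104 was listed at 0 in KO vehicle livers alone, with 2177 FPKM in KO IUB288, 715 in WT IUB288 and 408 in WT vehicle livers. Haemoglobin genes kept a gap at both levels, with the locus of Hba-a1 and Hba-a2, chosen after its values were seen, at 156 FPKM in KO IUB288, 123 in KO vehicle, 60.8 in WT IUB288 and 62.8 in WT vehicle livers and a difference of 0.39 ± 0.57.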
